A study of Mus musculus with 6 samples.

Results

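The type I interferon response genes described here are 42 genes that interferon alpha and beta act through or switch on. They were taken by gene symbol from a list, 1 row for each Ensembl identifier, out of 55487 genes in the count table, and all 42 were found and passed the filter on low counts. They were measured by bulk RNA sequencing in microglia, macrophages that live in brain tissue, which were sorted alive by CD11b and intermediate CD45 staining out of the cortex of 6 females at 20 months of age. The 3 controls carried floxed Atg7 alleles (Atg7-fl/fl) and no Cre. The 3 knockouts carried the same alleles with Cx3cr1-CreERT2, a ligand-inducible Cre recombinase made from the Cx3cr1 locus, which is active in microglia and in other macrophages and monocytes. The series describes the controls as littermates, each library comes from 1 mouse, and the sources used here do not give how and when Cre was induced. Loss of Atg7, an enzyme of autophagosome formation, and presence of the Cre allele therefore cannot be told apart.

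Type I interferons are secreted when cells sense foreign or misplaced nucleic acid. They bind a receptor of the subunits IFNAR1 and IFNAR2, whose kinases JAK1 and TYK2 activate STAT proteins, STAT2 among them. STAT2 and IRF9 are parts of the ISGF3 complex, which binds interferon-stimulated response elements in promoters and switches on antiviral genes. Microglia carry a low tonic activity of this pathway, and a raised one is known from aged brain and from brain with amyloid deposits.

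Promoters of members that the results turn on are shown first. The members were not chosen by promoter sequence. They were chosen as interferon response genes, and ISGF3 acts through the response element, so its share among them is not independent of that choice. RefSeq promoter windows of the GRCm38.p6 build, reaching from 250 bases before to 50 bases after the annotated start, were found for 31 of the 42 members. The element core was searched as GAAA, any 2 bases and GAAA, or on the other strand as TTTC, any 2 bases and TTTC. It occurred in 15 of these 31 members (48.4%) and in 1079 of 27025 genes with a window (3.99%). The gamma-activated site TTCNNNGAA, a STAT-binding motif, occurred in 8 of the 31 (25.8%) and in 9.55% of all. Some matches of the response element overlap each other, and a match is a description of letters and not a site shown to be bound. Each window is printed 5′ to 3′ on the strand of its gene, with matches to the response element core in capitals. Isg15 (chr4:156200769-156201068, minus strand) holds 3 overlapping matches, the first starting 78 bases before the annotated start.
Isg15: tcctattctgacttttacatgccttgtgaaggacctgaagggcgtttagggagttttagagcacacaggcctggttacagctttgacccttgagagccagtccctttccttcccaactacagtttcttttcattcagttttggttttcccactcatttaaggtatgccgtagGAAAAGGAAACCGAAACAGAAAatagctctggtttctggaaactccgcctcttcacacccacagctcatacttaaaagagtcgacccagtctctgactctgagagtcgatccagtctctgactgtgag
Ifit3 (chr19:34583279-34583578, plus strand) and its paralog Ifit3b (chr19:34607707-34608006, plus strand) hold 2 matches each and share an identical run of 169 bases across the 300-base windows.
Ifit3: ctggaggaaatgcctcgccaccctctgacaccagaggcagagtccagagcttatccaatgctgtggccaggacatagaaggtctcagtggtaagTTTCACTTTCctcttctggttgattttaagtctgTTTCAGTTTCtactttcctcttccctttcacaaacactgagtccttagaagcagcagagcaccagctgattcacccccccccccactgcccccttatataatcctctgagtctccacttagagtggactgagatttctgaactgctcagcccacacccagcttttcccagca
Ifit3b: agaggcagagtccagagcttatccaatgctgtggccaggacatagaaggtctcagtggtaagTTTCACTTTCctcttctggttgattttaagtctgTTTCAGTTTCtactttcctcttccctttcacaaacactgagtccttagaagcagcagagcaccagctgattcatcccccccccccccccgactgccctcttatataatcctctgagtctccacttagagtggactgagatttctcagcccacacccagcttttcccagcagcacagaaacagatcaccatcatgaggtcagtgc
Ifitm2 (chr7:140955912-140956211, minus strand) and its family member Ifitm3 (chr7:141010695-141010994, minus strand) are shown because their values below differ between the groups to unlike degrees. Ifitm2 holds 1 match, starting 46 bases before the annotated start, and Ifitm3 holds 2 matches just after it.
Ifitm2: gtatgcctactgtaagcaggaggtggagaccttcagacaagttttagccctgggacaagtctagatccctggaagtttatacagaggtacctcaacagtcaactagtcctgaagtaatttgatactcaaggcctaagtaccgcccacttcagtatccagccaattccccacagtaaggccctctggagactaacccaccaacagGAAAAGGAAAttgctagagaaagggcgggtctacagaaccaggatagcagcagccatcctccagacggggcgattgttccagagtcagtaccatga
Ifitm3: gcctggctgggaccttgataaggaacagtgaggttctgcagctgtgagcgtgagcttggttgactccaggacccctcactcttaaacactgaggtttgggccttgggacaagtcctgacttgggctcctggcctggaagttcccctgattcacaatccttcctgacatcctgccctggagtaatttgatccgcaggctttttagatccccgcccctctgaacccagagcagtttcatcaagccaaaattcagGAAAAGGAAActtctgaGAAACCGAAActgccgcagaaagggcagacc
Ifnar2 (chr16:91372533-91372832, plus strand), the receptor gene with the lowest fold change of the members, holds no match to these letters in its window.
Ifnar2: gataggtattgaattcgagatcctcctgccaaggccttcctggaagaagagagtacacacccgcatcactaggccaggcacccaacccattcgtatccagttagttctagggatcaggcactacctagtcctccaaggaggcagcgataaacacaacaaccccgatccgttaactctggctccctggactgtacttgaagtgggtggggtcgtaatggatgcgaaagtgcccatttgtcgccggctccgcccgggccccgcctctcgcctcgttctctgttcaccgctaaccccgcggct

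Depth was uneven. Library totals were 1254380 reads in control 3 and 3789208 reads in knockout 2, called the shallow libraries below, and 21282335 to 39389527 reads in the other 4. Levels are given as CPM, read counts scaled to a common library size by TMM, and 3 reads corresponded to 0.0789 CPM in control 1 and to 2.36 CPM in control 3. Reads are not independent molecules, so such floors cover counting error only. Atg7 averaged 62.9 CPM ± 5.46 (SD, n = 3) over the controls, against 25.1 CPM ± 1.39 over the knockouts (edgeR adjusted p = 0.0147), without overlap. The 10 microglial markers summed to 61374 to 66809 CPM in the controls and to 48922 to 54328 CPM in the knockouts, without overlap, and the 10 markers of T and NK cells summed to at most 3.87 CPM in any library. Cx3cr1, the locus that carries the Cre allele, was the 1 microglial marker called (10620 CPM ± 907 in the controls, 4710 CPM ± 791 in the knockouts, edgeR adjusted p = 0.00126). Without it the sums were 50114 to 55791 CPM and 44796 to 49933 CPM.

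No interferon response gene passed the threshold between knockouts and controls. EdgeR called 0 of the 42 at an adjusted p under 0.05, where it called 0.0443% of the 15787 genes tested, 0.0317% as higher and 0.0127% as lower. At an unadjusted p under 0.05, 1 member was higher (Ifitm2; 2.34% of all genes tested) and 1 was lower (Ifnar2; 1.98% of all), where 4.32% of all genes passed in either direction. DESeq2 called these same 2 members, against 0.526% of all genes tested, and limma voom called 0, against 0.0950% of all. The groups did not overlap in 2 members, Ifitm2 and Samhd1, both higher in the knockouts (6.59% of all genes), and in 0 members that were lower (4.47% of all). The log2 fold change, knockout over control, was above 0 in 29 of 42 members (69.0%; 52.5% of all genes), with a median of 0.13 beside 0.02 over all genes tested. In bulk samples, fewer cells of a type and less RNA per cell cannot be told apart.

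Precision differed widely between members. The 95% interval of the log2 fold change lay within -1 and 1, that is within a doubling or a fall to 50%, in 23 of 42 members (54.8%; 43.2% of all genes tested). For the other 19 these data did not exclude a change of that size. The median standard error was 0.30 for the members and 0.40 for all genes.

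**Figure D1:**
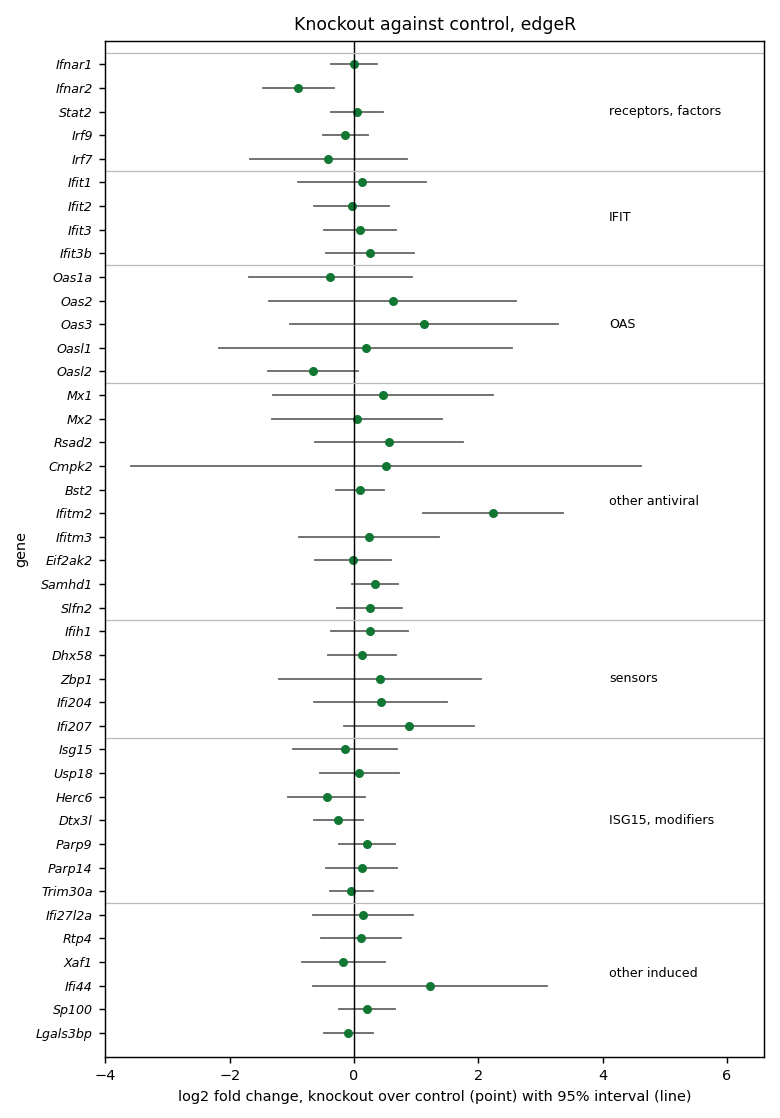
Each point is the log2 fold change of a member, knockout over control, and each line its 95% interval from the edgeR fit, with genes grouped by role. Ifitm2 at 2.24 and Ifnar2 at -0.90 are the members whose intervals leave out 0, and Cmpk2 has the widest interval, from -3.58 to 4.61.

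The members also moved together within the control group. Control 1 was the lowest of the 3 controls in 34 of 42 members (81.0%), where it was the lowest in 23.0% of all genes tested. Control 2 was the lowest in 2 members and control 3 in 6, where they were the lowest in 24.3% and 52.6% of all genes. Control 1 lay below control 2 in 38 members (90.5%; 50.1% of all genes). It was the lowest of all 6 libraries in 26 members. In log2 CPM centred on each gene's mean, the median of the members was -0.59 in control 1, 0.22 in control 2 and 0.23 in control 3, and 0.14, -0.19 and 0.23 in knockouts 1 to 3. The median of all genes tested lay between -0.13 and 0.08 in every library. Controls 1 and 2 are the deepest libraries, and the members' level in control 2 over that in control 1 had a median ratio of 1.81, beside 0.999 over all genes tested with reads in control 1 (15548 genes). In 19 members (45.2%) control 2 had at least 2 times the level of control 1, as it did in 8.03% of those genes.

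**Figure D2:**
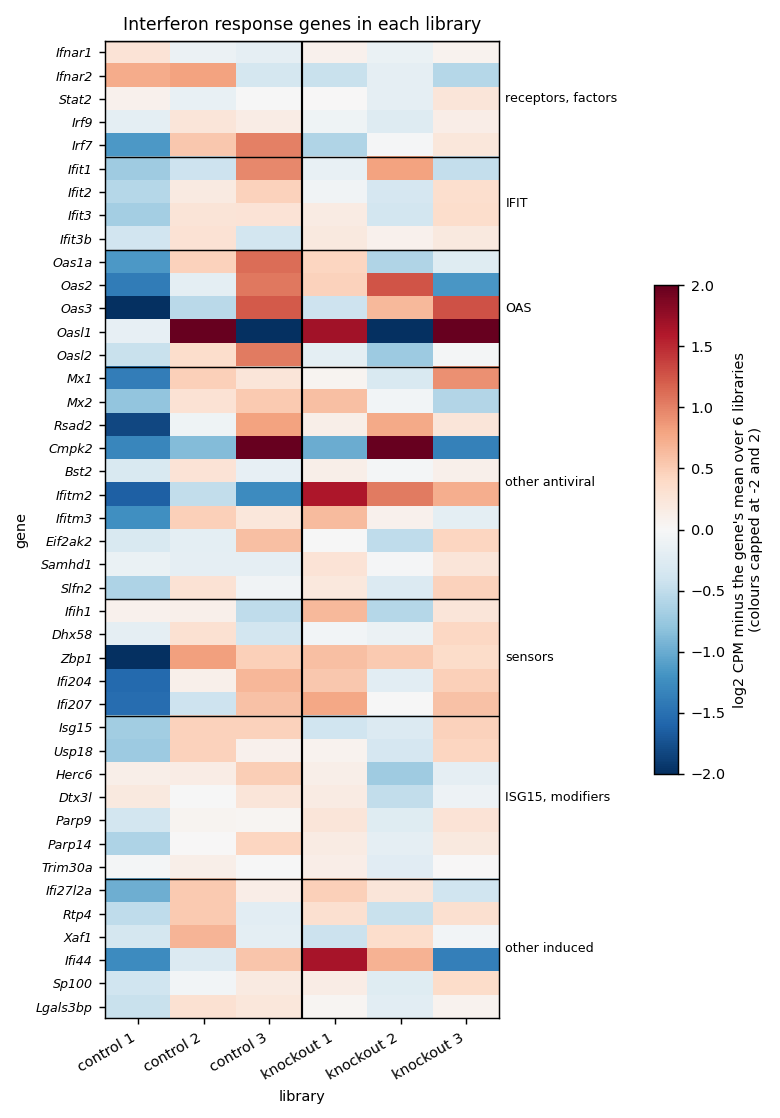
Colours give log2 CPM minus the gene's mean over the 6 libraries, for 42 genes in rows grouped by role and 6 libraries in columns; red is higher and blue lower. The column of control 1 is blue in most rows, 36 of 42 members lying below their own mean there.

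The direction of the members' median rested on single libraries. Without control 1 the median log2 fold change was -0.12, and 15 of 42 members lay above 0. With any other library left out it was between -0.000725, without knockout 3, and 0.285, without control 2. Markers of some other myeloid cells were low in control 1 too. The summed markers of border-associated macrophages came to 14.9, 41.0 and 93.5 CPM across controls 1 to 3, then 261, 165 and 67.7 CPM across knockouts 1 to 3. Those of neutrophils came to 44.1, 361 and 480 CPM, then 2000.4, 652.5 and 142 CPM. Control 1 thus had the lowest sum of all 6 libraries in each, while knockout 2, with the lowest member median of the knockouts, had a middle sum. Dendritic cell markers differed, and control 1 was not their lowest library. They summed to 26.45, 28.69 and 20.43 CPM across controls 1 to 3, then 33.42, 19.74 and 29.1 CPM across knockouts 1 to 3. Neutrophils and most border-associated macrophages stain higher for CD45 than microglia, and the sort took intermediate CD45. Reads of their markers were still present in all 6 libraries. The part of these cells in the pattern was not tested.

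**Figure D3:**
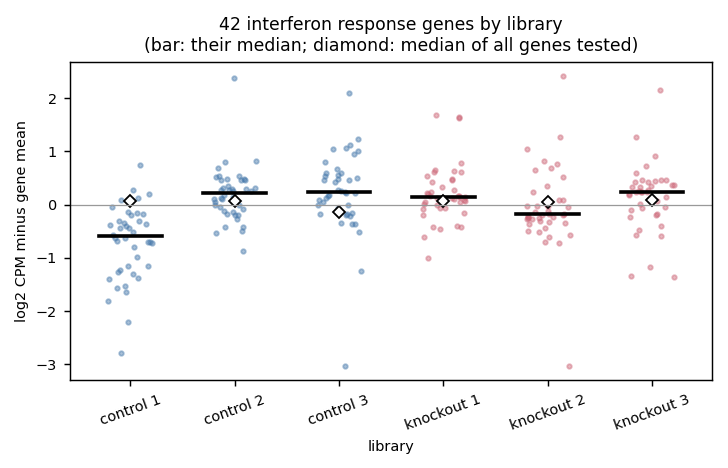
Points are the 42 members in each library as log2 CPM minus the gene's mean, bars their medians, and diamonds the medians of all genes tested. The bar of control 1 lies at -0.59, and those of the other 5 libraries between -0.19 and 0.23.

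Among the 5 receptor and transcription factor genes 0 were called, and the difference between the receptor subunits was not tested. Ifnar1 (ENSMUSG00000022967) stood at 105, 80.2 and 77.0 CPM across controls 1 to 3, then 92.5, 79.0 and 91.6 CPM across knockouts 1 to 3. These groups overlapped fully, with a log2 fold change of 0.00 (SE 0.17, 95% interval -0.37 to 0.37, edgeR adjusted p = 0.999). Ifnar2 (ENSMUSG00000022971), the subunit that binds STAT2 and USP18, stood at 128, 132 and 59.7 CPM across controls 1 to 3, then 55.6, 66.8 and 51.3 CPM across knockouts 1 to 3. Controls 1 and 2 were high, while the shallow control 3, with 76 reads, lay among the knockouts. The log2 fold change was -0.90 (SE 0.26, interval -1.47 to -0.33, edgeR unadjusted p = 0.00516, adjusted p = 0.665).

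The call of Ifnar2 depended on the fit. DESeq2 called it (adjusted p = 0.0278), as did edgeR with no filter on low counts (adjusted p = 0.0081; 0.308% of all genes called). EdgeR also called it without control 3 (log2 fold change -1.18, adjusted p = 0.00743; 0.287% of all called) and without both shallow libraries (-1.29, adjusted p = 0.0121; 0.232% of all called). Limma voom did not (-1.15, adjusted p = 0.0659), and edgeR did not without any 1 of the other 5 libraries. Those fits gave -0.72 without control 2 and -0.75 without control 1, the values nearest to 0, and adjusted p-values of 0.965 to 0.9999. In all 16 alternatives its fold change stayed below 0. In GENCODE M21, 9.46% of its exonic bases are shared with Gm21970, so reads there cannot be assigned with certainty. Gm21970 had 0 reads in every library, which does not show how reads in the shared bases were counted. Il10rb, the next receptor gene of that cluster and chosen after its value was seen, averaged 138 CPM ± 6.81 over the controls, against 148 CPM ± 6.26 over the knockouts (log2 fold change 0.10, SE 0.15).

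Stat2 and Irf9 overlapped between the groups. Stat2 stood at 45.4, 38.4 and 42.4 CPM across controls 1 to 3, then 42.6, 37.4 and 50.2 CPM across knockouts 1 to 3, at a log2 fold change of 0.05 (SE 0.20, interval -0.37 to 0.47, edgeR adjusted p = 0.999). Irf9, which gives the complex its DNA contact, stood at 131, 179 and 167 CPM, then 142, 126 and 165 CPM. Its groups overlapped, at a log2 fold change of -0.14 (SE 0.17, interval -0.50 to 0.23, edgeR adjusted p = 0.999). Irf7, the interferon-induced factor that amplifies interferon production, was less even. It stood at 9.60, 31.1 and 43.2 CPM across the controls, then 14.1, 21.04 and 25.2 CPM across the knockouts, and the knockouts lay inside the range of the controls (log2 fold change -0.41, SE 0.53, interval -1.68 to 0.85, adjusted p = 0.999). Without control 1 the value was -0.86, at an unadjusted p of 0.0135 (adjusted p = 0.998).

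The IFIT genes, whose products bind foreign RNA and stall its translation, did not separate the groups. Ifit3 stood at 24.5, 47.1 and 47.9 CPM across controls 1 to 3, then 44.3, 30.6 and 50.4 CPM across knockouts 1 to 3 (log2 fold change 0.10, SE 0.27). Ifit2 stood at 17.0, 28.6 and 34.6 CPM, then 23.9, 20.0 and 31.7 CPM (-0.04, SE 0.28). In both, control 1 was the lowest library. Ifit3b ranged from 8.55 to 13.7 CPM. Of the 50-base windows of Ifit3 transcripts in GENCODE M21, 51.2% also occur in another gene, Ifit3b, so the split of reads between this pair is uncertain. Ifit1, which recognises RNA without the host's cap methylation, had 23.6 CPM in control 3 and 21.3 CPM in knockout 2, and 7.36 to 10.9 CPM in the other 4 libraries.

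In the OAS family, whose synthetases make the oligoadenylates that activate RNase L, 3 of 5 members had a log2 fold change above 0. Oasl2, an OAS-like gene with ubiquitin-like domains, stood at 19.6, 34.1 and 55.0 CPM across controls 1 to 3, then 23.3, 16.1 and 25.9 CPM across knockouts 1 to 3. The groups overlapped, with control 1 among the knockouts (log2 fold change -0.67, SE 0.33, interval -1.39 to 0.06, edgeR unadjusted p = 0.0682, adjusted p = 0.999). The value of Oasl2 was -0.98 without control 1, -0.29 without control 3 and -0.13 without both shallow libraries. It stayed below 0 in all 16 alternatives. Oas1a stood at 7.60, 23.4 and 36.9 CPM, then 22.8, 11.2 and 14.4 CPM, with a log2 fold change of -0.38 (SE 0.56). Of its 50-base windows, 57.6% occur also in other genes, mainly Oas1g and Oas1b. Oas2, Oas3 and Oasl1, the last known in mouse to restrain translation of Irf7, lay at 0 to 3.64 CPM, near the floor of the shallow libraries. Oasl1 had 0 reads in control 3 and knockout 2, which allows up to 2.36 and 0.779 CPM, while the other 4 libraries had 21 to 135 reads. Oas3 had 3.14 CPM in control 3 from 4 reads, and its fold change on the log2 scale was 1.13 (SE 1.01, interval -1.03 to 3.28, edgeR unadjusted p = 0.282, adjusted p = 0.999). It was 0.31 without control 1 and 0.37 without knockout 3.

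**Figure D4:**
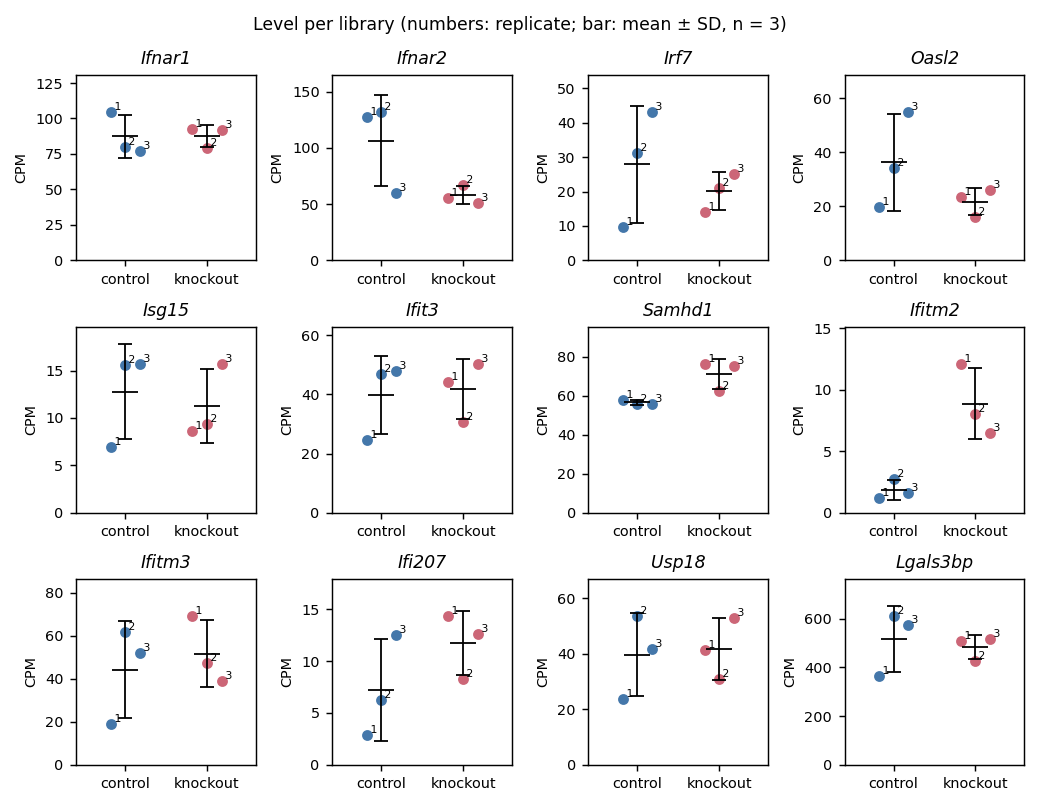
Panels give the CPM of 12 members in each library, numbered by replicate, with mean ± SD (n = 3) per group and axes that start at 0. Ifitm2 and Samhd1 are the panels without overlap between the groups. In Irf7, Isg15, Ifit3, Usp18, Ifitm2, Ifitm3, Ifi207 and Lgals3bp control 1 is the lowest library.

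The other antiviral effectors held the member with the highest fold change. Ifitm2 (ENSMUSG00000060591), a membrane protein gene of the family that blocks viral entry from endosomes, stood at 1.18, 2.72 and 1.57 CPM across controls 1 to 3, then 12.1, 8.05 and 6.46 CPM across knockouts 1 to 3. Every knockout lay above every control, at a log2 fold change of 2.24 (SE 0.53, interval 1.12 to 3.36, edgeR unadjusted p = 0.000701, adjusted p = 0.261). Control 3 rests on 2 reads. DESeq2 called the gene (adjusted p = 0.0149), edgeR with no filter gave an adjusted p of 0.0544, and leaving out a library gave log2 fold changes of 1.93 to 2.78 with adjusted p-values of 0.134 to 0.9998. Ifitm2 shares 40.9% of its exonic bases with Gm45717, which had 0 reads in every library, and 48.5% of its 50-base windows with other genes, so its read assignment is uncertain. Ifitm3, the best known antiviral member of the family, stood at 18.9, 61.9 and 51.9 CPM, then 69.1, 47.3 and 38.8 CPM. Its groups overlapped, with a log2 fold change of 0.24 (SE 0.47).

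Markers of other myeloid cells are given beside Ifitm2. None was called, and their sums overlapped between the groups. All 10 border-associated macrophage markers had a log2 fold change above 0, and their sum ranged from 14.9 to 93.5 CPM in the controls and from 67.7 to 261 CPM in the knockouts. Lyve1, Clec4n, Folr2 and Cd209f had no read in control 1, and Pf4 had none in control 3. Of the monocyte markers, 5 of 6 tested lay above 0, with sums of 10.0, 38.0 and 47.9 CPM across controls 1 to 3, then 145, 65.7 and 20.9 CPM across knockouts 1 to 3. All 7 neutrophil markers tested lay above 0, where 52.5% of all genes tested did. The groups did not overlap in 2 of the 10 border-associated macrophage markers, 2 of the 6 monocyte markers and 0 of the 7 neutrophil markers. Where they did not overlap the knockouts were higher, as in 6.59% of all genes tested. Within the knockouts Ifitm2 ranked the libraries as all 3 sums did. Within the controls it was highest in control 2, where the sums were highest in control 3. The part of these cells in the Ifitm2 values was not tested.

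**Figure D5:**
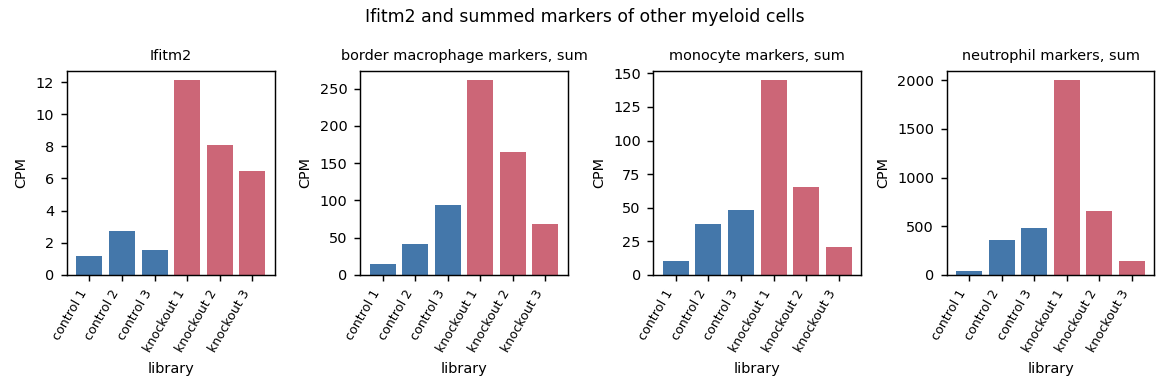
Bars give the CPM of Ifitm2 and the summed CPM of markers of border-associated macrophages, monocytes and neutrophils in each library, each on its own linear axis. Knockout 1 has the highest bar in every panel and control 1 the lowest, while knockout 3 lies above all controls in Ifitm2 and below 1 or more controls in each marker sum.

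Samhd1, which removes the nucleotides that viral DNA synthesis needs, stood at 57.6, 55.9 and 55.8 CPM across controls 1 to 3, then 76.2, 62.1 and 75.1 CPM across knockouts 1 to 3. The groups did not overlap, at a log2 fold change of 0.34 (SE 0.17, interval -0.03 to 0.70, edgeR unadjusted p = 0.0706, adjusted p = 0.999). Its fold change was between 0.26 and 0.41 in the 16 alternatives. Slfn2, a regulator of quiescence in T cells and monocytes, stood at 100.5, 189 and 147 CPM, then 179, 128 and 212 CPM (0.25, SE 0.24, interval -0.27 to 0.77, edgeR unadjusted p = 0.312, adjusted p = 0.999). Bst2, the tetherin that holds budding virus at the cell surface, stood at 76.2, 114 and 84.1 CPM, then 102, 91.7 and 100.5 CPM (0.10, SE 0.18). Both genes overlapped between the groups. Eif2ak2, the kinase PKR that stops translation on double-stranded RNA, ranged from 22.6 to 48.7 CPM, with a log2 fold change of -0.01 (SE 0.29, interval -0.63 to 0.60).

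Rsad2 and its neighbour Cmpk2 code for viperin and a mitochondrial nucleotide kinase that supplies its substrate. Rsad2 stood at 2.10, 7.21 and 13.4 CPM across controls 1 to 3, then 8.26, 12.99 and 9.02 CPM across knockouts 1 to 3 (log2 fold change 0.56, SE 0.55, interval -0.63 to 1.75, edgeR unadjusted p = 0.326, adjusted p = 0.999). Cmpk2 had 12.6 CPM in control 3 and 15.6 CPM in knockout 2, from 16 and 60 reads, and 1.07 to 1.53 CPM in the other 4 libraries. Both shallow libraries lay above all the deeper ones in 4 members, Ifit1, Oas2, Rsad2 and Cmpk2 (9.52% of 42, where it was 9.67% of all genes tested). Mx1 and Mx2, dynamin-like GTPases, lay at 0.447 to 2.56 CPM and 1.52 to 4.14 CPM; Mx1 is a defective gene in many laboratory strains.

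The fold change of all 5 nucleic acid sensor genes lay above 0 (median log2 value 0.42), and 0 were called, where 52.5% of all genes tested lay above 0. Without control 1, 3 of the 5 lay above 0 with a median of 0.06, and without knockout 1 or knockout 3 it was 4 of 5. Ifi207, a DNA-binding PYHIN protein gene, stood at 2.84, 6.24 and 12.6 CPM across controls 1 to 3, then 14.4, 8.31 and 12.6 CPM across knockouts 1 to 3. Control 3 lay among the knockouts (log2 fold change 0.89, SE 0.49, interval -0.15 to 1.93, edgeR unadjusted p = 0.0891, adjusted p = 0.999). Its value was 0.43 without control 1 and 1.57 without both shallow libraries (adjusted p = 0.254). Ifi204 of the same family stood at 4.63, 14.8 and 22.002 CPM, then 20.1, 11.9 and 19.2 CPM, and 20% of its 50-base windows occur in other genes. Ifih1, the RNA sensor MDA5, stood at 28.6, 29.0 and 18.9 CPM, then 42.3, 18.2 and 31.8 CPM (0.25, SE 0.29). Dhx58, the related LGP2, ranged from 18.1 to 31.3 CPM (0.13, SE 0.26). Zbp1, a sensor of Z-form nucleic acid that can start necroptosis, had 0.578 CPM in control 1 from 22 reads and 8.07 CPM in control 2 from 300 reads. Its other libraries lay between 5.81 and 6.90 CPM, so that control 1 stood apart from the other 5.

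Genes of ISG15 and of ubiquitin or ADP-ribose modification were divided, with 3 of 7 above 0 and a median of -0.045. Isg15, the ubiquitin-like modifier whose promoter holds the 3 matches printed above, stood at 6.97, 15.6 and 15.7 CPM across controls 1 to 3, then 8.58, 9.35 and 15.7 CPM across knockouts 1 to 3. Both groups held high and low libraries (log2 fold change -0.14, SE 0.39, interval -0.98 to 0.69). Usp18, which removes ISG15 and inhibits signalling at IFNAR2, stood at 23.7, 53.6 and 41.6 CPM, then 41.2, 30.9 and 53.0 CPM (0.08, SE 0.29). Herc6, the main ISG15 ligase in mouse, had 17.5, 17.9 and 22.8 CPM in the controls. It had 17.6, 9.87 and 14.3 CPM in the knockouts, where knockout 1 lay just above control 1 (log2 fold change -0.44, SE 0.29, interval -1.06 to 0.18, edgeR unadjusted p = 0.154, adjusted p = 0.999).

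Dtx3l and Parp9 act as a complex of a ubiquitin ligase and an ADP-ribosyltransferase family member, and exons of their genes overlap. Dtx3l stood at 112, 96.6 and 116 CPM across controls 1 to 3, then 109.7, 69.6 and 91.0 CPM across knockouts 1 to 3 (log2 fold change -0.25, SE 0.19, interval -0.65 to 0.14, edgeR unadjusted p = 0.19, adjusted p = 0.999). Parp9 stood at 38.3, 51.3 and 51.1 CPM, then 58.8, 41.8 and 60.3 CPM (0.21, SE 0.21, interval -0.24 to 0.65). Both were lowest in knockout 2 among the knockouts. They share 8% and 9.4% of their exonic bases, so reads there cannot be assigned with certainty. Parp14 ranged from 17.4 to 36.1 CPM. Trim30a, known in mouse as an inhibitor of NF-kB signalling, ranged from 84.4 to 109 CPM and had a log2 fold change of -0.04 (SE 0.16, interval -0.39 to 0.30).

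Among the remaining induced genes, Lgals3bp, a secreted galectin-binding glycoprotein, stood at 364, 611 and 576 CPM across controls 1 to 3, then 509, 428 and 519 CPM across knockouts 1 to 3 (log2 fold change -0.09, SE 0.18, interval -0.48 to 0.30). Rtp4, a receptor chaperone that also restrains RNA viruses, stood at 45.2, 92.8 and 55.8 CPM, then 81.0, 47.5 and 81.1 CPM (0.11, SE 0.29). Sp100, a nuclear body protein gene, stood at 40.7, 51.7 and 60.5 CPM, then 59.6, 45.5 and 69.5 CPM (0.21, SE 0.21, interval -0.24 to 0.66, edgeR unadjusted p = 0.341, adjusted p = 0.999). In all 3 genes control 1 was the lowest library and the groups overlapped. Rtp4 shares 13.9% of its exonic bases with Gm45338, as Herc6 shares 13.7% with Gm45193, so part of their reads cannot be assigned with certainty. Ifi27l2a ranged from 8.70 CPM in control 1 to 24.8 CPM in control 2. Xaf1, a gene for a partner of the apoptosis inhibitor XIAP, ranged from 14.8 to 32.0 CPM (-0.17, SE 0.31). Ifi44 stood at 0.605, 1.29 and 2.36 CPM, then 5.12, 2.60 and 0.558 CPM, and its groups overlapped (log2 fold change 1.23, SE 0.88, interval -0.65 to 3.11, edgeR unadjusted p = 0.185, adjusted p = 0.999). Without knockout 1 its value was 0.23.

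Levels of the members spanned a wide range. As CPM per kilobase of GENCODE M21 exon, averaged over the 6 libraries, Lgals3bp was highest at 176, followed by Bst2 at 105, Slfn2 at 95.6 and Ifitm3 at 70.8. The lowest were Mx1 at 0.389, Ifi44 at 0.341 and Oas3 at 0.247. Their median biological coefficient of variation in the edgeR fit was 0.32, beside 0.392 over all genes tested. Members with the response element core had a median log2 fold change of 0.13 (15 members), and those with a window but no match -0.06 (16 members). Control 1 was the lowest control in 13 of those 15 and in 11 of those 16. The 11 members without a window had a median of 0.14, and control 1 was their lowest control in 10.

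Genes around the response were taken from lists of the same pathway. None of the 9 ligand genes passed the filter on low counts: 7 had 0 reads in all 6 libraries, Ifnb1 had 9 reads in total and Ifnl3 had 3. Of 9 genes of JAK-STAT signalling and its inhibitors, 0 were called and 7 had a log2 fold change below 0. Over all genes tested, 52.5% lay above 0. Socs3, a feedback inhibitor of cytokine receptors, stood at 22.8, 16.9 and 9.43 CPM across controls 1 to 3, then 8.88, 12.5 and 10.3 CPM across knockouts 1 to 3 (log2 fold change -0.70, SE 0.34, edgeR unadjusted p = 0.0573, adjusted p = 0.999). Stat3, a factor of cytokine signalling, had a value of -0.14 (SE 0.17).

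Of 17 tested genes of nucleic acid sensing and IRF activation, 0 were called. At an unadjusted edgeR p under 0.05, 1 of them was lower (1.98% of all genes tested) and 1 higher (2.34% of all). Sting1, the adaptor that relays cytosolic DNA to interferon induction, stood at 819, 884 and 856 CPM across controls 1 to 3, then 710, 617 and 754 CPM across knockouts 1 to 3. Every knockout lay below every control, at a log2 fold change of -0.30 (SE 0.13, edgeR unadjusted p = 0.0413, adjusted p = 0.999). Ikbke, a kinase that activates IRF3 and IRF7, had 0.131 CPM in control 1, no read in the other controls, and 1.89, 0.519 and 0.697 CPM in knockouts 1 to 3 (adjusted p = 0.874). Adar, which edits double-stranded RNA, had -0.32 (SE 0.21).

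Among 17 tested genes of the type II interferon response, 0 were called. Unadjusted edgeR p-values under 0.05 were reached by 3 with higher values (2.34% of all genes tested) and 1 with lower values (1.98% of all). Iigp1, an immunity-related GTPase gene, stood at 1.31, 3.36 and 3.14 CPM across controls 1 to 3, then 10.7, 10.9 and 7.07 CPM across knockouts 1 to 3. Every knockout lay above every control (log2 fold change 1.94, SE 0.51, edgeR unadjusted p = 0.00167, adjusted p = 0.406). Gbp2, a guanylate-binding protein gene, stood at 9.52, 8.44 and 17.3 CPM, then 22.4, 16.4 and 19.2 CPM, with the value of control 3 above that of knockout 2 (0.82, SE 0.33, adjusted p = 0.999). Gbp4 had 10.2 CPM in control 3 from 13 reads and at most 0.736 CPM in the other 5 libraries (-4.62, SE 1.61, adjusted p = 0.94).

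Of 35 tested targets of type I interferon outside the member list, 0 were called, 17 had a log2 fold change above 0 and 18 below, with a median of -0.004. Gm4951 stood at 24.2, 35.6 and 25.9 CPM across controls 1 to 3, then 59.5, 44.9 and 51.0 CPM across knockouts 1 to 3, without overlap (log2 fold change 0.85, SE 0.22, edgeR unadjusted p = 0.0015, adjusted p = 0.381). Ddx60 and Ifi211 had 0.41 (SE 0.28) and 1.79 (SE 1.04). Tap1, Psmb8 and Psmb9, named for their place in MHC class I peptide supply and not for their p-values, had 0.21 (SE 0.22), 0.03 (SE 0.19) and 0.04 (SE 0.18). Control 1 was the lowest control in 12 of these 35 genes, a smaller share than among the members and nearer to that of all genes; the difference between the lists was not tested.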

How the data were processed

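The authors deposited 1 table of raw read counts, whole numbers without normalization, for 6 libraries. Tools named in the submitters' processing notes are STAR, featureCounts of Subread, Salmon and bcl2fastq, and the build named there is GRCm39; versions, annotation and strand setting are not given in the sources used here. Of 55774 rows, 287 repeated an identifier with the same counts and were dropped; 0 rows named no gene and 0 columns belonged to other samples.

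Counts were fitted with edgeR 4.0.16 in R 4.3.3: default expression filter, TMM scaling, robust quasi-likelihood F-test with group as the only term, and Benjamini-Hochberg adjustment over all 15787 genes tested. Calls needed an adjusted p below 0.05. The SE of a fold change is its log2 value over the square root of F. Centred values used a prior count of 2. The labels name biological replicates, and counts within each group differed beyond sampling noise (chi-square per degree of freedom of at least 39.4). The fit was tested on simulated data, in which it called few of the genes changed by log2 1 and most of those changed by log2 2. A larger share of its calls than the threshold of 0.05 was false in that draw. The changed genes were not members and averaged at least 5 CPM, so the test does not cover members near the floor.

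Members and lists were chosen with earlier results of these data known. All members may be named; full statistics were given for the 12 with the smallest p and for the receptors and factors, and in other lists up to 3 genes with the smallest p; 1 gene of these lists is not reported here, and 3 genes of MHC class I supply and Il10rb were named outside this rule. The sum of microglial markers without Cx3cr1 was chosen after seeing the data. Exon lengths, shared bases and windows of 50 bases come from GENCODE M21, an annotation of another build than the notes name. Alternatives were other scalings, filters and tools (DESeq2 1.42.0, limma voom 3.58.1), the replicate number as a block, thinning to 1254380 reads and leaving out libraries.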

Additional observations from a re-analysis of the deposited data

How the results depend on the processing

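The numbers of genes called higher and lower were 5 and 2 as reported, 60 and 42 with no filter, 49 and 34 with DESeq2, 9 and 6 with limma voom, 1 and 1 in edgeR without the robust option, 9 and 30 without both shallow libraries, and 5 and 4 after thinning. With the replicate number as a block they were 16 and 9; 0 members were called in that fit. Deviations of same-numbered libraries correlated at 0.3, -0.216 and -0.058, and those of the shallow libraries, control 3 and knockout 2, at 0.287. With 3 libraries per group and uneven depth, these values cannot decide whether the numbers pair the samples. Leaving out 1 library gave 1 to 15 genes higher and 1 to 35 lower. Interferon members called numbered 0 as reported, 1 with no filter, 2 with DESeq2, 1 without both shallow libraries, and 0 to 1 with a library left out; in each the member was Ifnar2, joined by Ifitm2 in DESeq2. The median log2 fold change of the members was 0.13 as reported, -0.121 to 0.285 with a library left out, -0.005 after thinning (33 members tested) and 0.0989 to 0.32 in the other alternatives. The members' median in each library, as centred log2 CPM, had a pooled within-group SD of 0.368. The sign of a member's fold change differed from the reported one in 14 members without control 1, in 9 without control 2, in 8 each without knockout 3, without both shallow libraries and after thinning, in 7 with limma voom, and in 0 to 6 in the other alternatives. Depth limits members near 2.36 CPM, the level of 3 reads in control 3: 3 members had under 3 reads in at least 1 library.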
